A study of Homo sapiens with 6 samples.

Results

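The annexins are the 10 genes ANXA1, ANXA2, ANXA3, ANXA4, ANXA5, ANXA6, ANXA7, ANXA8L1, ANXA10 and ANXA11, taken by symbol from an array table together with every symbol that starts with ANXA8. The rule found 12 of 65854 transcript clusters (the array's gene-level probe groups), and after 1 cluster was kept per gene they made up 10 of 24930 genes tested. Expression had been measured on 6 Affymetrix whole-transcript arrays, 3 of T24/THP and 3 of T24, with the values deposited as log2 intensities. T24/THP is a multidrug-resistant line raised from T24, a human bladder cancer line, through 24 h pulses of the anthracycline pirarubicin. The first pulse was 5 ng/ml and the last 1000 ng/ml, selection took over 6 months, and a dose every 2 to 3 weeks upheld the resistance. T24 is the drug-sensitive parental line, cultured alongside in the same RPMI-1640 medium with fetal bovine serum. Selection was done once, and p-values therefore rest on the spread among the 3 biological replicates of each line, not among separately selected lines. In such bulk RNA, fewer cells that express a gene and less of its RNA per cell cannot be told apart. The labels do not say how long before RNA extraction the drug was last given.

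Annexins are proteins that bind negatively charged phospholipids in the presence of calcium, through a conserved core that sits on the membrane surface and a variable N-terminal tail that recruits other proteins. They act in membrane trafficking, repair of torn plasma membrane, linkage of membranes to the actin skeleton and, outside the cell, in clotting, fibrinolysis and the damping of inflammation. Epithelial cells, those of the bladder among them, carry several annexins at once.

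The array values were near each other within a line, where Pearson's r over genes was at least 0.9967, against at most 0.981 for arrays of different lines. Array medians spanned 3.71 to 3.79 log2 units. The range of the array's background was read from 23 control probe sets. Its upper bound was 5.51 in T24/THP and 5.54 in T24, and a level at or under it is called within the background range. The brightest of these probe sets was at 6.38 on T24 replicate 3, against 4.93 to 5.60 on the other 5 arrays. Of 11 urothelial and epithelial markers only KRT7, KRT8 and KRT18 lay above the background range, in both lines, while GATA3, PPARG, CDH1, EPCAM, KRT19 and the 3 uroplakins did not. None of 5 leukocyte and 4 fibroblast markers was above it. Of 3 endothelial markers CDH5 was, at 13.12 in T24/THP and 12.30 in T24, while PECAM1 and VWF were not, and its part in the annexin differences was not tested.

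The ANXA8 copies fell steeply in T24/THP, ANXA3 rose past 2-fold, and the other annexins differed by less than 2-fold. A gene passed the test at a Benjamini-Hochberg adjusted p under 0.05 over all genes in limma's moderated fit, and it was called when it also differed by at least 2-fold. ANXA8L1 was called lower and ANXA3 called higher, which is 2 of 10 annexin genes against 6.62% of all genes in either direction. Of all genes, 2.85% were called higher and 3.77% lower. Without the 2-fold minimum 2 annexins passed as higher and 6 as lower, against 15.1% and 18.0% of all genes, or 33.1% in either direction. Among the 10519 genes above the background range in at least 1 line, which hold 9 of the 10 annexins, 26.8% passed as higher and 37.4% as lower, together 64.2%. Of those genes 6.45% were called higher and 8.80% lower, together 15.2%. The median log2 difference was −0.27 over the annexins, −0.32 over those 9, 0.01 over all genes and −0.08 over the genes above the background range.

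**Figure D1:**
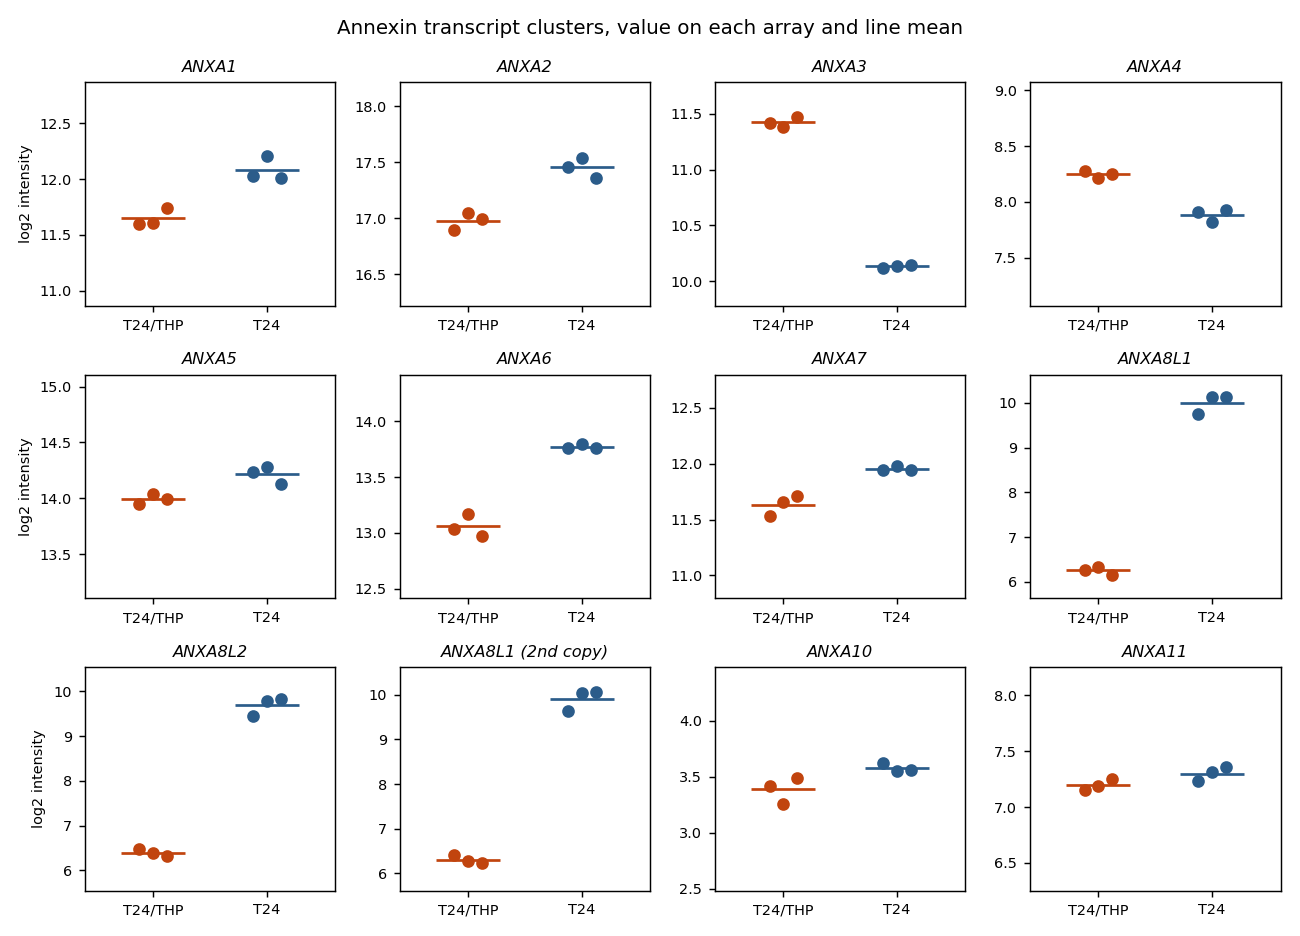
Log2 intensity of each annexin transcript cluster on the 3 T24/THP arrays (orange, left) and the 3 T24 arrays (blue, right), with a bar at the line's mean. The vertical axis spans 5 log2 units in the 3 ANXA8 panels and 2 in the others. The T24/THP arrays lie between 6.16 and 6.48 in the ANXA8 panels, against 9.46 to 10.13 for T24, and the lines do not overlap in any panel but that of ANXA11.

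The ANXA8 copies had the largest difference of the family. ANXA8 was first known as a vascular anticoagulant and is associated with late endosomes, and its gene has near-identical copies on chromosome 10, so the clusters may read the same transcripts and are not independent measurements. The ANXA8L1 cluster on the minus strand at chr10:47157983-47174122 (GRCh37) had 6.27, 6.34 and 6.16 log2 units on the T24/THP arrays, against 9.76, 10.13 and 10.13 on the T24 arrays. Its difference was −3.75 ± 0.112 (SE, n = 3 each), or 13.5-fold lower, with an adjusted p of 9.49e-07 in limma's fit. Among all 24930 genes it was the 10th largest fall by measured difference.

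The other copies gave like values. The second ANXA8L1 cluster, at chr10:48255225-48279199 on the plus strand, had 6.41, 6.28 and 6.24 on T24/THP arrays and 9.63, 10.04 and 10.05 on T24 arrays. The cluster the table names ANXA8L2, at chr10:47742393-47770871, had 6.48, 6.38 and 6.31 on T24/THP arrays and 9.46, 9.79 and 9.83 on T24 arrays. RefSeq lists that name as a synonym of ANXA8L1. In a fit of every cluster with a symbol the second ANXA8L1 cluster differed by −3.60 ± 0.121 and the ANXA8L2 cluster by −3.30 ± 0.107 (SE, n = 3 each), with adjusted p of 1.85e-06 and 1.55e-06, and of 26683 such clusters 3.66% were called lower, 3.02% higher and 6.69% in all. On any 1 array the 3 clusters lay within 0.34 log2 units of each other, and T24 replicate 1 was the lowest T24 array in all 3. Averaged over the clusters, the arrays had 6.39, 6.33 and 6.23 in T24/THP and 9.62, 9.99 and 10.01 in T24. The lowest T24/THP value, 6.16, was above the upper bound of the background range, 5.51.

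ANXA3 was the 1 annexin called higher. It encodes an annexin that is abundant in neutrophils and that inhibits phospholipase A2 in the test tube. ANXA3, at chr4:79472673-79531605 on the plus strand (GRCh37), had 11.42, 11.38 and 11.47 log2 units on T24/THP arrays, against 10.12, 10.14 and 10.15 on T24 arrays. Its arrays were among the tightest of the family, with SDs of 0.0452 in T24/THP and 0.014 in T24, and the lines stood far apart. The difference was 1.28 ± 0.0538 (SE, n = 3 each), a 2.44-fold rise with an adjusted p of 3.92e-06 in limma's fit. It was the 432nd largest rise of all genes.

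The stretch just before the gene start is shown for the called genes, since the lines differ in how much of their transcripts they hold. Each is 250 bases from RefSeq (GRCh38.p14), read 5′ to 3′ on the gene's strand, and capitals mark CG dinucleotides, the sites of DNA methylation. The ANXA3 window is chr4:78551520-78551769 and the ANXA8L1 window chr10:46375526-46375775, both on the plus strand. The ANXA8L1 window was taken by symbol and was not matched to a cluster. The called ANXA8L1 cluster lies on the minus strand in GRCh37, and which copy its transcripts come from was not tested.
ANXA3: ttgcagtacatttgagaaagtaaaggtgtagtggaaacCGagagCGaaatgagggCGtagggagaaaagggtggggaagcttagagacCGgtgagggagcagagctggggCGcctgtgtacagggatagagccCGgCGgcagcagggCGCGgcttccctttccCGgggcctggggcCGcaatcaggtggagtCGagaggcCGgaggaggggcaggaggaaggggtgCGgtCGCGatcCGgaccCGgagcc
ANXA8L1: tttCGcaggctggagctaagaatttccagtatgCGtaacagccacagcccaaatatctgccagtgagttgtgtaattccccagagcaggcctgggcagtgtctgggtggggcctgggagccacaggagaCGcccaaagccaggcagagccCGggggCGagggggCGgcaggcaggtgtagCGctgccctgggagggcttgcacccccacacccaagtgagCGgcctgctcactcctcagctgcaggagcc
The ANXA3 window holds 18 CG dinucleotides and the ANXA8L1 window 8, beside a median of 11 over 35116 promoter windows of that length. All 10 annexin genes had at least 1 window, 14 in all, and the windows of ANXA1 and ANXA10 hold no CG. Motifs were searched on both strands. The TATA box sequence TATAAA was in 4 of the 14 annexin windows and in 10.7% of all windows. The AP-1 motif TGANTCA was in 1 of 14, that of ANXA2, and in 6.57% of all windows, and the interferon-response motif, GAAA followed after any 2 bases by GAAA, was in none of 14 and in 3.02% of all. Neither the ANXA3 nor the ANXA8L1 window held any of these motifs. No methylation or binding was measured.

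ANXA6 and ANXA2 fell by the most among the annexins that passed the test without reaching 2-fold. ANXA6, a large annexin with a doubled core, gathers the Ras inhibitor p120GAP and protein kinase C alpha at membranes. Its levels were 13.04, 13.17 and 12.97 log2 units on T24/THP arrays and 13.76, 13.80 and 13.76 on T24 arrays, so every T24/THP array was lower. The ANXA6 difference was −0.71 ± 0.0666 (SE, n = 3 each; adjusted p of 0.000128, limma), or 1.64-fold lower, and its cluster lies at chr5:150480267-150537443 (GRCh37).

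ANXA2 joins S100A10 in a tetramer that binds plasminogen and its activator at the cell surface and links membranes to actin. It had 16.89, 17.05 and 16.99 on T24/THP arrays and 17.46, 17.54 and 17.36 on T24 arrays, with no overlap. The difference was −0.47 ± 0.071 (SE, n = 3 each; adjusted p of 0.00142, limma), and the cluster lies at chr15:60639333-60690242. ANXA2 has processed pseudogenes whose probes may read its transcript. ANXA2P1 had 10.35, 10.68 and 10.59 on T24/THP arrays and 11.39, 11.99 and 10.28 on T24 arrays, a difference of −0.68 that did not pass (adjusted p of 0.241, limma). T24 replicate 3, the array with the brightest background probe set, was also the lowest T24 array for ANXA2P2, at 17.39 against 17.91 and 18.07, and for ANXA2P3, at 4.97 against 5.86 and 5.81. Without that array the ANXA2 difference was −0.52.

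ANXA1, ANXA7 and ANXA5 were lower by smaller amounts. ANXA1, which glucocorticoids induce in many cells and whose N-terminal peptide acts on formyl peptide receptors, had 11.60, 11.61 and 11.74 on T24/THP arrays and 12.03, 12.21 and 12.01 on T24 arrays. Its difference was −0.43 ± 0.0759 (SE, n = 3 each; adjusted p of 0.00323, limma), and every T24/THP array was lower than every T24 array. ANXA7, also called synexin for its part in the fusion of secretory granules, had 11.53, 11.66 and 11.71 on T24/THP arrays and 11.94, 11.98 and 11.94 on T24 arrays, a difference of −0.32 ± 0.0643 (SE, n = 3 each; adjusted p of 0.00597, limma). ANXA5, the anticoagulant annexin used to stain phosphatidylserine on dying cells, had 13.95, 14.04 and 13.99 on T24/THP arrays and 14.24, 14.28 and 14.13 on T24 arrays. The ANXA5 difference of −0.22 ± 0.0621 (SE, n = 3 each; adjusted p of 0.0278, limma) missed the threshold when T24/THP replicate 1 (0.104), 2 (0.0527) or 3 (0.0803) or T24 replicate 1 (0.0683) or 2 (0.0961) was left out. ANXA1 lies at chr9:75766673-75785309, ANXA7 at chr10:75135189-75173841 and ANXA5 at chr4:122589110-122618268 (GRCh37).

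ANXA4 was the other annexin that passed as higher. It is an epithelial annexin that gathers on the plasma membrane and nuclear envelope when calcium rises. ANXA4, at chr2:69871557-70053596, had 8.28, 8.21 and 8.25 on T24/THP arrays and 7.91, 7.82 and 7.93 on T24 arrays, all T24/THP arrays being higher. The difference was 0.36 ± 0.0573 (SE, n = 3 each; adjusted p of 0.00184, limma).

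ANXA11 and ANXA10 did not pass. ANXA11, which binds S100A6 and PDCD6 and acts in cytokinesis and the transport of RNA granules, had 7.15, 7.19 and 7.25 on T24/THP arrays and 7.23, 7.31 and 7.36 on T24 arrays, which overlap. Its difference was −0.10, with a 95% confidence interval of −0.24 to 0.04 and an adjusted p of 0.287 in limma's fit. ANXA10, an atypical annexin known from gastric epithelium, was no brighter than the background range, with 3.42, 3.26 and 3.49 on T24/THP arrays and 3.62, 3.55 and 3.56 on T24 arrays, so no fold is given (adjusted p of 0.0934, limma). ANXA11 lies at chr10:81910645-81965433 and ANXA10 at chr4:169013666-169108893 (GRCh37). The lines did not overlap for 9 of the 10 annexin genes, ANXA11 being the exception, and for 45.2% of all genes. Among genes above the background range in at least 1 line, they did not overlap for 8 of 9 annexins and for 7861 of 10519 genes.

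**Figure D2:**
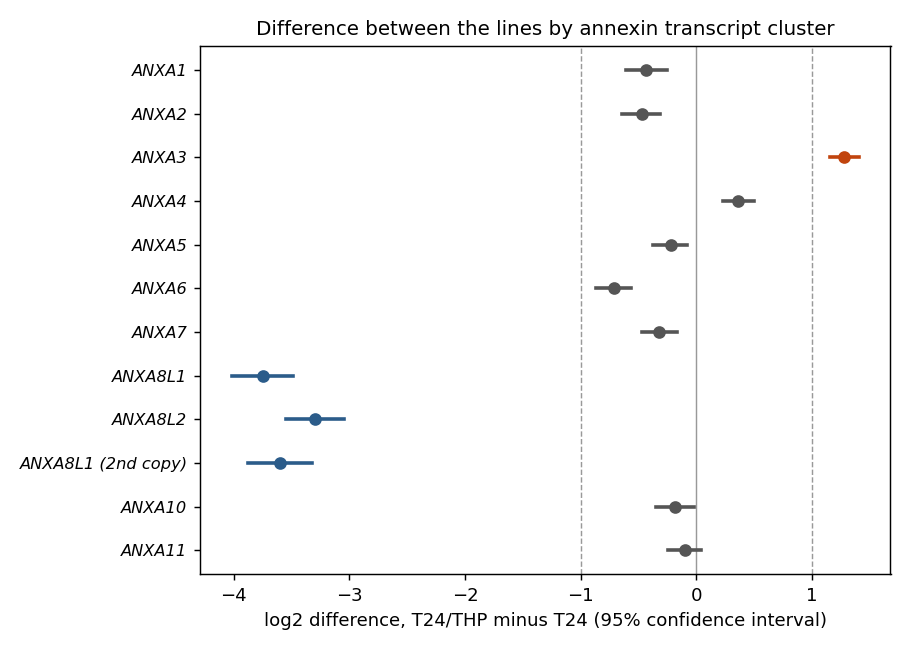
Log2 difference between the lines (T24/THP minus T24) for each annexin transcript cluster, with points at the fitted difference and bars for its 95% confidence interval. Dashed lines mark 2-fold. The 3 ANXA8 clusters lie between −3.75 and −3.30, ANXA3 lies at 1.28, and all other intervals lie within 2-fold.

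Brighter genes as a whole were slightly lower in T24/THP, which bears on the smaller annexin differences. The median log2 difference was 0.02 for genes with a mean level under 4 log2 units, −0.14 for those between 9 and 11, −0.17 for those between 11 and 12 and −0.16 for those at 12 and above. Relative to a smooth trend over all genes at the same level, ANXA6 stood at −0.63, ANXA2 at −0.45, ANXA1 at −0.33, ANXA7 at −0.22 and ANXA5 at −0.15, while ANXA4 stood at 0.46 and ANXA3 at 1.40. With that trend removed ANXA5 no longer passed (adjusted p of 0.123, limma), and ANXA1, ANXA2, ANXA4, ANXA6 and ANXA7 did. The median residual SD between replicates was 0.0702 log2 units over the annexins against 0.0939 over all genes. ANXA8L1, at 0.166, and ANXA1, at 0.0949, were above both medians. Of all genes, 14411 were within the background range in both lines, so the medians do not compare genes of like level.

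**Figure D3:**
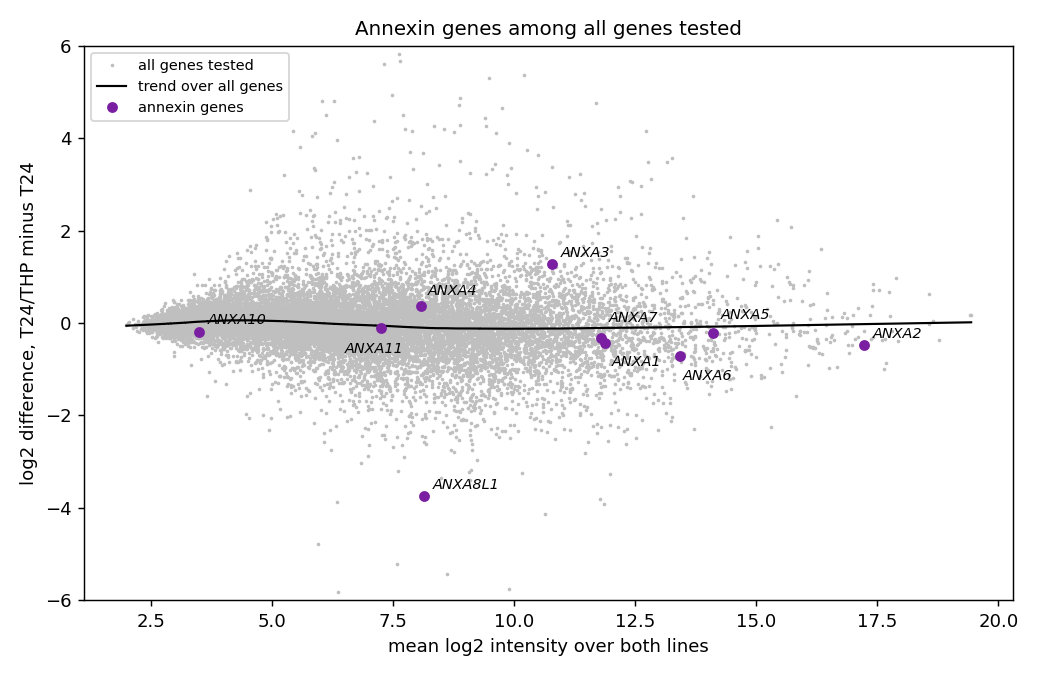
Log2 difference (T24/THP minus T24) against mean log2 intensity over both lines for the 24930 genes tested (grey), with the smooth trend (line) and the 10 annexin genes (purple). ANXA8L1 at −3.75 lies among the lowest genes, ANXA3 at 1.28 lies above the trend, and 7 genes fall beyond the vertical axis.

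Of 37 partner and pathway genes, 2 were called higher and 2 lower, and 9 passed as higher and 9 as lower without the 2-fold minimum, with a median difference of −0.04. Beside these stand 6.62% of all genes called and 33.1% passing, or 15.2% and 64.2% of the genes above the background range. The 37 genes counted as 1 set did not stand above both backgrounds. By list, the called genes were 2 of 4 on the phospholipase A2 axis. They were 1 of 5 on cell-surface plasminogen activation and 1 of 5 on phosphatidylserine exposure. These shares are larger than both backgrounds, but they rest on few genes and were not tested. The other lists held no called gene. None of the 5 genes for S100 proteins and the scaffold AHNAK was called. Members named from here on that were not called were chosen after their values were seen.

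Among 5 genes of plasminogen activation 1 was called, as higher. PLAT, the tissue plasminogen activator that the ANXA2 complex binds, had 14.90, 14.93 and 14.89 log2 units on T24/THP arrays and 11.60, 11.33 and 11.31 on T24 arrays. That is a difference of 3.50 ± 0.0853 (SE, n = 3 each), or 11.3-fold higher, with an adjusted p of 4.04e-07 in limma's fit. PLAU, the urokinase activator, and its receptor PLAUR passed as lower, at −0.66 and −0.80 (adjusted p of 0.000337 and 0.000452, limma). PLG, plasminogen itself, was within the background range in both lines, and ANXA2R, named as a receptor for ANXA2, differed by −0.04 (adjusted p of 0.712, limma).

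S100A10, the partner of ANXA2, had 7.93, 8.18 and 8.01 on T24/THP arrays and 7.96, 7.94 and 7.87 on T24 arrays, a difference of 0.12 that did not pass (adjusted p of 0.304, limma). S100A11, which binds ANXA1, had 11.60, 11.70 and 11.66 on T24/THP arrays and 11.52, 11.33 and 11.48 on T24 arrays, a difference of 0.21 that passed at the edge of the threshold. It was under the threshold in 6 of 15 alternatives, at adjusted p of 0.00847 to 0.152 over the 15 (limma). Those 6 include dropping the 2-fold minimum and a second deposited copy of the values, which both repeat the main fit. The formyl peptide receptors FPR1, FPR2 and FPR3 were all within the background range in both lines, where FPR1 passed at −0.21 (adjusted p of 0.0362, limma).

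On the phospholipase A2 and glucocorticoid list 2 of 4 genes were called lower. PTGS2, the inducible cyclooxygenase that makes prostaglandins, had 5.87, 5.94 and 6.33 on T24/THP arrays and 8.66, 7.77 and 8.17 on T24 arrays, a difference of −2.15 ± 0.222 (SE, n = 3 each; adjusted p of 0.000213, limma). PLA2G4A, the cytosolic phospholipase A2 that ANXA1 inhibits, had 5.32, 5.31 and 5.44 on T24/THP arrays, within the background range, and 6.38, 6.34 and 6.44 on T24 arrays. Its measured difference was −1.04 (adjusted p of 1.72e-05, limma). Taken against the background bound, the lower limit of the fall was 1.85-fold, under the 2-fold of a call. An offset of 32 on linear intensities brought the measured difference to −0.67 and the call was lost. NR3C1, the glucocorticoid receptor, differed by −0.05 (adjusted p of 0.673, limma).

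PLSCR1, a phospholipid scramblase that interferon induces, was the 1 called gene of 5 for phosphatidylserine exposure. It had 12.11, 12.04 and 12.27 on T24/THP arrays and 8.48, 8.39 and 8.29 on T24 arrays, a difference of 3.75 ± 0.0814 (SE, n = 3 each), or 13.4-fold higher (adjusted p of 3.08e-07, limma). The flippase gene ATP11A passed as lower, at −0.34 (adjusted p of 0.0252, limma). The scramblase gene XKR8, within the background range in T24, passed as at least 1.22-fold higher (adjusted p of 0.0324, limma), and the calcium-gated scramblase ANO6 differed by 0.16 (adjusted p of 0.233, limma).

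None of 10 membrane repair genes was called, and 4 passed as higher and 2 as lower. The 4 were MYOF at 0.42, EHD2 at 0.35, CAV1 at 0.34 and DYSF at a lower limit of 1.13-fold, which encode the ferlins myoferlin and dysferlin and proteins of caveolae. DYSF, within the background range in T24, missed the threshold in 4 of 15 alternatives. CAVIN1, also of caveolae, went the other way at −0.26 and did not pass (adjusted p of 0.106, limma). CAPN2 and CAPN1, the calcium-activated proteases called calpains, passed as lower, at −0.81 and −0.73 (adjusted p of 4.65e-05 and 0.000157, limma). RASA1, which encodes the p120GAP that ANXA6 binds, was at −0.93 (adjusted p of 0.000154, limma) and reached −1.03 without T24/THP replicate 3, past 2-fold, while PRKCA differed by −0.05 (adjusted p of 0.795, limma). Of 3 penta-EF-hand and ESCRT partners, PDCD6IP passed at 0.38 (adjusted p of 0.00422, limma).

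**Figure D4:**
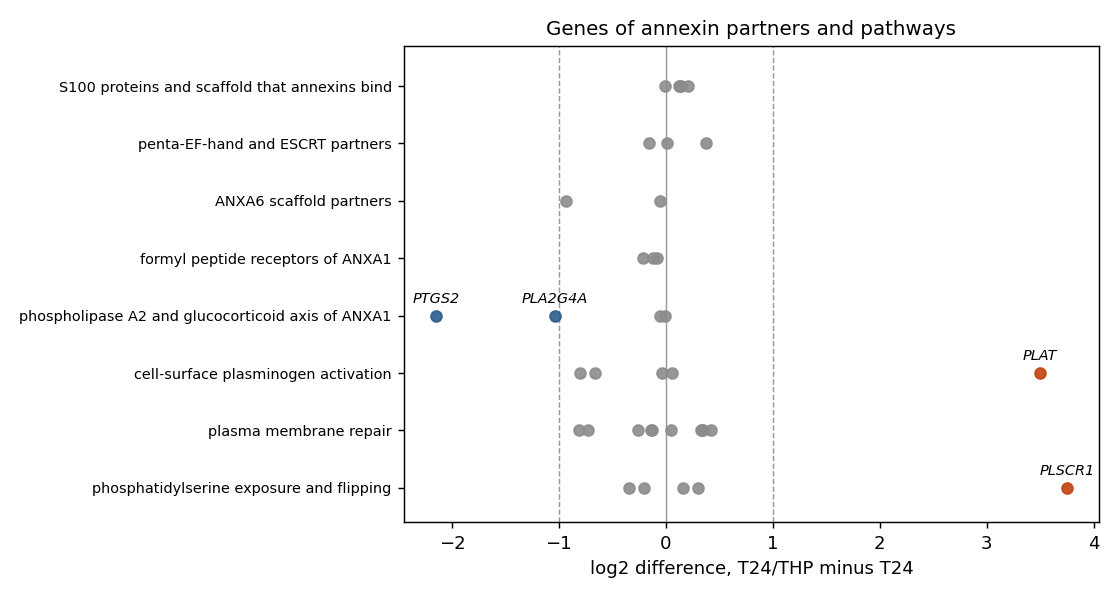
Log2 difference (T24/THP minus T24) of the 37 partner and pathway genes, 1 row per list, with genes called higher in orange, called lower in blue and not called in grey. Dashed lines mark 2-fold. PLSCR1 at 3.75 and PLAT at 3.50 lie to the right, and PTGS2 at −2.15 and PLA2G4A at −1.04 to the left.

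Within 500 kb of ANXA3 lay 5 tested genes, of which FRAS1, an extracellular matrix protein of basement membranes, was called. FRAS1 ends 7249 bases before ANXA3 begins, on the same strand. It had 7.07, 7.04 and 6.87 on T24/THP arrays and 4.56, 4.57 and 4.53 on T24 arrays, at least 2.74-fold higher (adjusted p of 7.52e-07, limma). The other 4, BMP2K, LINC01088, LINC01094 and PAQR3, differed by −0.23 to 0.14 and none passed. LINC01088 and LINC01094 were within the background range in both lines. Within 500 kb of any of the 3 ANXA8 clusters lay 18 tested genes, 13 of them within the background range in both lines, and none was called. Over all genes 6.62% were called and 33.1% passed, or 15.2% and 64.2% of those above the background range. LINC00842, within the background range, overlaps the ANXA8L1 cluster on the minus strand and passed as lower, at −0.41 (adjusted p of 0.00339, limma). Of these 18, 4 passed as lower and 1 as higher, from −0.98 for HNRNPA1P33 to 0.32 for WASHC2A. The other lower ones were SHLD2P1 at −0.73 and SHLD2P3 at −0.62. Their levels were near-equal, at 6.82 and 6.82 in T24/THP and 7.54 and 7.44 in T24. Whether the 4 are independent measurements was not tested. HNRNPA1P33 is a pseudogene at 12.14 in T24/THP and 13.12 in T24, and whether its probes read transcripts from elsewhere was not tested. HNRNPA1P33 was at −1.28 and called without T24 replicate 3, and at −0.68 without T24 replicate 2. Its adjusted p in limma's fit missed the threshold with the offset of 32 (0.0584) and without T24/THP replicate 1 (0.0736), 2 (0.0532) or 3 (0.0669) or T24 replicate 1 (0.065). The table also places 10 unnamed clusters at annexin loci, of which 1 was called, as lower. Over all 65854 clusters 4.27% were called, 2.28% as higher and 1.99% as lower.

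All 10 annexins carry the annotation "calcium-dependent phospholipid binding" in the array table, together with 15 other genes, ANXA9, ANXA13 and the pseudogene ANXA2P2 among them. Of those 15, 1 was called higher and 1 lower, beside 6.62% of all genes called and 15.2% of the genes above the background range. The higher one was MCTP1, a membrane protein with calcium-binding C2 domains, at 7.94 in T24/THP and 6.23 in T24 (adjusted p of 4.30e-05, limma), and the lower one was PLA2G4A. ANXA9, ANXA13, DOC2B, PCLO, SYT11, SYT2 and SYTL3 were within the background range in both lines. With those genes included, the median difference of the 15 was −0.02, against −0.27 over the annexins, so the medians do not compare genes of like level.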

How the data were processed

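RNA of 3 T24/THP and 3 T24 samples was labelled with biotin (WT PLUS kit, per the labels' protocols) and hybridised to Affymetrix whole-transcript arrays. Each transcript cluster has a log2 intensity per array, deposited as normalized by the authors. The submitters' processing notes name Affymetrix Expression Console; its algorithm is not given in the sources used here. Other columns used from the deposited table are its annotation, such as probe numbers. Coordinates are GRCh37, as in the text of the deposited table.

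Of 65854 transcript clusters 26515 have 1 symbol. Symbols were updated through RefSeq (GRCh38.p14), and the cluster with the highest mean was kept per gene, which gave 24930 genes with no filter on low values. T24/THP and T24 were fitted without covariates in limma 3.58.1 (R 4.3.3; moderated, two-sided). P-values were adjusted by Benjamini-Hochberg across every gene, and a call needed at least 2-fold. The fit was tested on simulated data. The background bound was set per line: the brightest of 23 control probe sets on each array, averaged. Where 1 line lay under its bound, the fold is a lower limit, computed against that bound. The adjusted p beside such a fold tests the measured difference. Named by rule were all annexins, up to 2 called genes per direction of each partner list, and called neighbours. Other partner and neighbour genes that are named were chosen after their values were seen. Some items of the partner lists are not reported here and stay out of their counts. The members and lists were chosen with earlier results of these data known. Precision is limited by having 3 arrays per line. The fit of all clusters and the counts of genes above the background range were added after seeing the data. Alternatives are given in the closing section.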

Additional observations from a re-analysis of the deposited data

How the results depend on the processing

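ANXA3 and ANXA8L1 were called in all 16 alternatives, from 1.26 to 1.40 for ANXA3 and from −3.88 to −3.29 for ANXA8L1, the smallest ANXA8L1 value with an offset of 32 on the linear scale. Among the alternatives, dropping the 2-fold minimum reuses the main fit and could not lose a call or move an adjusted p. A second deposited copy of the values gave the same differences as the main fit. Both also stand in the counts out of 15. No annexin changed sign in any of them, ANXA10 being left out by the filter at the 50th percentile. The adjusted p stayed under 0.05 for ANXA1, ANXA2, ANXA4, ANXA6 and ANXA7 in all 15 alternatives other than the test against 2-fold itself, and in 9 of 15 for ANXA5. ANXA10 passed in 1 of 14 such alternatives, with quantile normalization (0.0347). With quantile normalization ANXA2 was at −0.65. Leaving out 1 array at a time gave 2 partner genes called higher, 2 to 3 lower, 1 neighbour higher, 0 to 1 lower, and 698 to 731 genes higher and 892 to 1048 lower over all genes. Dropping the 2-fold minimum gave 2 annexins higher and 6 lower, 9 partner genes higher and 9 lower, 2 neighbours higher and 4 lower, and 3768 genes higher and 4478 lower. Testing against 2-fold itself left 356 genes higher and 382 lower, and ended the call of PLA2G4A, as did the offset (−0.67), so that 1 partner gene was called lower under either. Same-numbered replicates correlated by 0.0186 to 0.151 in their deviations and 4 of 6 samples correlated best with their own number. The labels give no pairing, so the main fit did not pair them, and a fit with a replicate block was run beside it. With the replicate block 711 genes were called higher and 942 lower, and the annexin calls were 1 higher and 1 lower. ANXA10 and the other genes within the background range are limited by signal over background.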

Other observations

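The array table also holds 10 unnamed transcript clusters that it places at annexin loci, which the rule on symbols does not take. In a fit of all 65854 clusters, in which 1.99% were called lower, 1 of the 10 was called. It is a cluster of 6 probes over 30 bases at chr15:60678230-60678259 (GRCh37), on the strand opposite to ANXA2, with 8.10, 8.98 and 7.66 log2 units on T24/THP arrays and 10.31, 10.48 and 10.99 on T24 arrays. Its difference was −2.35 ± 0.337 (SE, n = 3 each; adjusted p of 0.00306, limma), against −0.47 for ANXA2 itself. A cluster of 2 probes at chr15:60643425-60643450, also opposite to ANXA2, differed by −0.99 ± 0.191 (SE, n = 3 each; adjusted p of 0.0118, limma). Both rest on few probes, and what they read was not tested. The antisense cluster at the ANXA8 locus was at 3.29 in T24/THP and 3.32 in T24, within the background range, where the ANXA8 copies differed by −3.30 to −3.75. A sense cluster of 30 probes within ANXA5 was at 14.65 in T24/THP and 15.09 in T24, a difference of −0.44 (adjusted p of 0.0297, limma), beside −0.22 for ANXA5. A sense cluster of 30 probes within ANXA11 was at 6.94 in T24/THP and 6.57 in T24, a difference of 0.37 that did not pass (adjusted p of 0.0701, limma), beside −0.10 for ANXA11.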
